A study of Mus musculus with 20 samples.

Results

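The 8 genes described here are known targets of the aryl hydrocarbon receptor and were measured in mouse lumbar dorsal root ganglia, the clusters of sensory neuron cell bodies and their surrounding cells. They are Cyp1a1, Cyp1b1, Nqo1, Aldh3a1, Ugt1a6a, Ugt1a6b, Xdh and Scin, chosen by symbol and found by Ensembl identifier in the exonic count table. All 8 were present among its 78258 identifiers, and all 8 passed the filter on low counts that left 28564 genes for testing. Of these genes 7 encode enzymes; Scin encodes scinderin, an actin-severing protein, and belongs to the set as a receptor target only. By table identifier and GENCODE M21 chromosome, the first 4 are Cyp1a1 (ENSMUSG00000032315.7) on chromosome 9, Cyp1b1 (ENSMUSG00000024087.5) on chromosome 17, Nqo1 (ENSMUSG00000003849.9) on chromosome 8 and Aldh3a1 (ENSMUSG00000019102.11) on chromosome 11. The others are Ugt1a6a (ENSMUSG00000054545.18) on chromosome 1, Ugt1a6b (ENSMUSG00000090145.8) on chromosome 1, Xdh (ENSMUSG00000024066.10) on chromosome 17 and Scin (ENSMUSG00000002565.17) on chromosome 12.

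The mice were male. Conditional knockout mice (cKO, 5 animals) carried Ahr fl/fl with a tamoxifen-inducible Cre joined to EYFP (Thy1CRE-ERT2/EYFP), so that Cre was driven by Thy1, a promoter used to reach neurons; the other cell types of the ganglion were not its target. Control mice (5 animals) carried Ahr f/f or f/+ according to the protocol and FF in the genotype field, although their titles call them wild type. Both genotypes received tamoxifen at 17 weeks of age (100 mg/kg i.p., 1 dose a day for 5 days). After a further 4 weeks the sciatic nerve was transected, which is called the injury here. Ganglia L4 to L6 were taken 1 day later at ZT2 to ZT4 from the injured (ipsilateral) and the opposite (contralateral) side of each mouse, giving 20 libraries in 4 groups of 5; the treatment field names a spinal cord injury instead.

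The aryl hydrocarbon receptor is a transcription factor held in the cytoplasm until it binds a ligand such as a dioxin, a plant indole or a tryptophan metabolite. It then enters the nucleus, pairs with ARNT and binds the core letters GCGTG in DNA. Its best known targets form the xenobiotic battery: cytochromes P450 that oxidise foreign molecules, dehydrogenases and reductases that handle the products, and transferases that attach sugar groups for excretion. Several of these genes also answer to NRF2, the regulator of oxidative stress defence, and Cyp1b1 is known from vascular and connective tissue cells.

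The promoters are shown because this core is the direct DNA link between the receptor and its targets. RefSeq (GRCm38.p6) gave a window of 250 bases before to 50 bases after the start for 5 of the 8 genes, namely Cyp1a1, Cyp1b1, Nqo1, Scin and Ugt1a6a. The core GCGTG was found, on either strand, in 3 of the 5 windows, compared with 32.4% of all 32851 windows. The longer form TNGCGTG was found in 0 of the 5 and in 5.07% of all windows, and the antioxidant element core TGACNNNGC in 0 of the 5 and in 12.4%. Below are the 120 bases before the start of the 3 genes with a match, 5′ to 3′ on the gene's strand, with the core in capitals. In Cyp1b1 it lies on the opposite strand and so reads CACGC. The intervals are chr9:57697493-57697612 (plus strand) for Cyp1a1, chr17:79715062-79715181 (minus strand) for Cyp1b1 and chr12:40134229-40134348 (minus strand) for Scin.
Cyp1a1: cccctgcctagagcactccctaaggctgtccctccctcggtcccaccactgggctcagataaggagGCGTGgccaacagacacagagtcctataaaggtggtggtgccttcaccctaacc
Cyp1b1: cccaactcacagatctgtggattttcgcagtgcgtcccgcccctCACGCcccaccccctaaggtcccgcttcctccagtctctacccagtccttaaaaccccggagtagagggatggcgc
Scin: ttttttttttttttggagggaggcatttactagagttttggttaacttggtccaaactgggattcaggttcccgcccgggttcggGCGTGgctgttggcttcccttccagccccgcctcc

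The core began 54 bases before the start in Cyp1a1, 76 in Cyp1b1 and 35 in Scin. A match describes letters only; binding was not measured, and these windows leave out distal enhancers. Of the 3 genes that share it, Cyp1b1 rose and Scin fell after injury, and the change of Cyp1a1 did not pass the test. Aldh3a1, Xdh and Ugt1a6b have no sequence shown.

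Total counts were 76150333 to 118537209 per library. The lowest of the 8 genes had 10 to 40 (Cyp1a1), 28 to 270 (Aldh3a1) and 97 to 248 counts (Ugt1a6b) per library, so counting error is largest for these. Markers of sensory neurons were high everywhere, with a summed level of 9554 to 11440 CPM (counts scaled to a common library total by the TMM method, the unit of all levels here) over 9 genes. No marker of the 12 cell type lists was at 0 in a whole group. Of these libraries, 3 stood apart: the contralateral cKO libraries of mice H64, H95 and H100 had 145, 218 and 215 CPM summed over 5 tendon and cartilage markers, while the other 7 contralateral libraries had 34.4 to 76.0 CPM. Muscle markers reached 1332 CPM in the contralateral library of H100 and ranged from 2.32 to 523 CPM in the other 19 libraries. These 3 also had the highest shares of mitochondrial counts, 1.301% to 1.333% against 0.916% to 1.199% in the other 17 libraries; the part of either in the results was not tested. Values without these 3 libraries or their mice are given beside some of the results below, a choice made after the data were seen. The fits without the 3 libraries kept every ipsilateral library. They therefore set 2 contralateral against 5 ipsilateral cKO libraries.

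Ahr, the targeted gene, had 21.3 to 27.2 CPM in the contralateral control libraries and 19.5 to 21.0 CPM in the contralateral cKO libraries. The groups did not overlap, but the log2 difference of -0.25 ± 0.07 (SE) did not pass the test over all genes (adjusted p = 0.103). On the ipsilateral side the ranges were 30.2 to 38.1 CPM in control and 28.9 to 36.8 CPM in cKO ganglia and overlapped (log2 difference -0.11 ± 0.07, adjusted p = 1.00). The counts sum all exons of Ahr, and the exons removed by Cre are not given in the labels. Arnt, the receptor's partner, had 18.8 to 19.95 CPM in contralateral control and 19.3 to 22.3 CPM in contralateral cKO ganglia. Ahr and Arnt both rose after injury, Ahr by 0.50 ± 0.07 in control and 0.65 ± 0.07 in cKO mice on the log2 scale (adjusted p = 4.7e-06 and 1.45e-07), and Arnt by 0.25 ± 0.05 and 0.18 ± 0.05 (adjusted p = 0.000429 and 0.00549).

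The 8 genes covered a wide range of abundance. Per kilobase of merged GENCODE M21 exon, in the contralateral control group, Nqo1 had 9.43 ± 0.47 CPM (SD, n = 5), Cyp1b1 8.72 ± 0.47 and Scin 6.27 ± 0.57. Nqo1 and Cyp1b1 did not differ beyond their spread. A second tier held Ugt1a6a with 1.13 ± 0.13 CPM per kilobase, Xdh with 0.807 ± 0.16 and Ugt1a6b with 0.689 ± 0.086, and the last pair overlapped within 1 SD. Aldh3a1 followed with 0.318 ± 0.22, and Cyp1a1, the classic read-out of receptor activation, was the lowest with 0.106 ± 0.022. After injury the order changed at the top: Cyp1b1 had 15.0004 ± 0.58 CPM per kilobase in control ipsilateral ganglia, above Nqo1 with 8.78 ± 0.55.

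**Figure D1:**
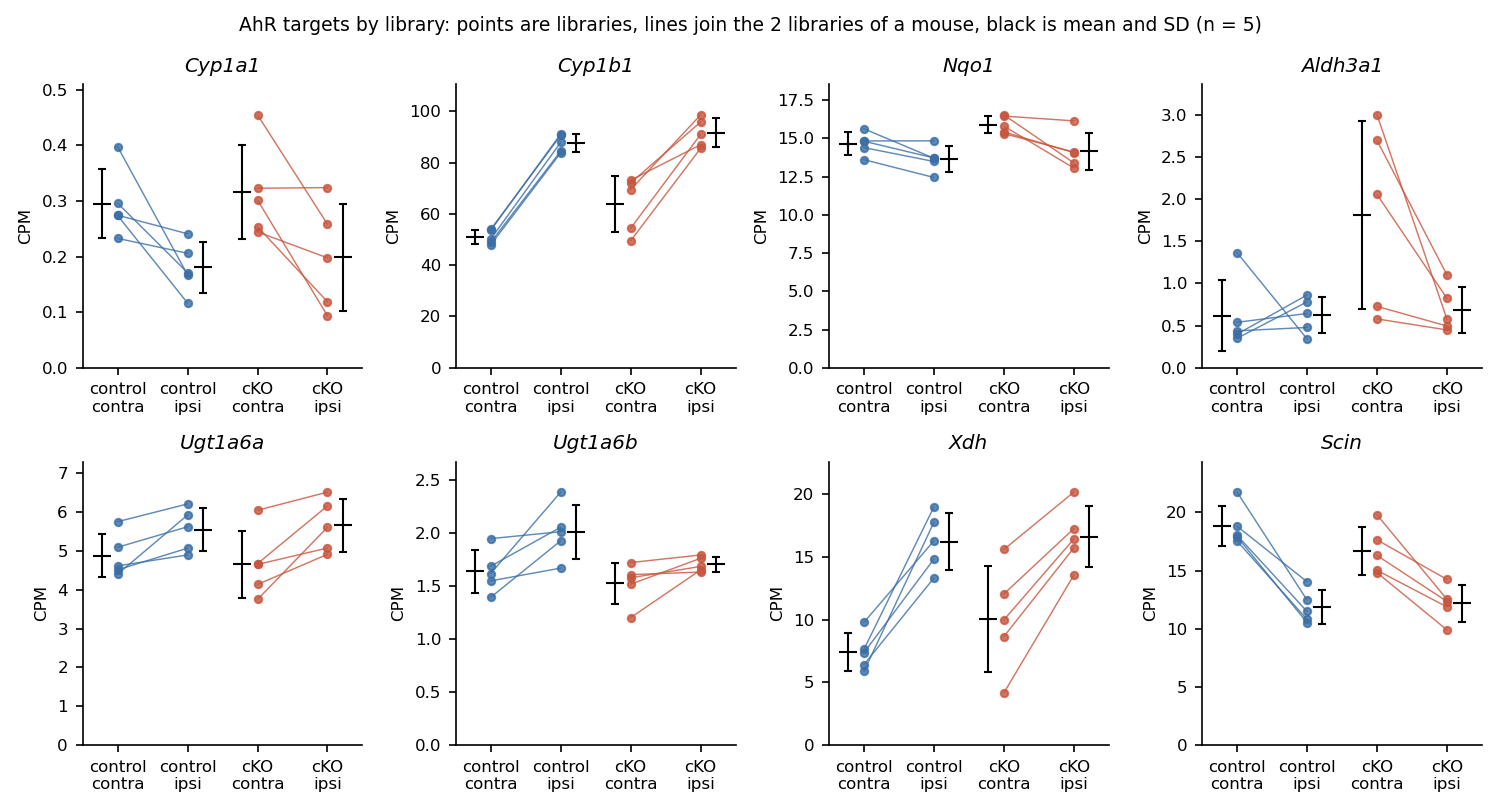
CPM (TMM-scaled, linear axes from 0) of the 8 genes in each library; points are libraries, lines join the contralateral and ipsilateral library of a mouse, and black marks are the mean and SD of 5 mice. Cyp1b1 and Xdh climb from contralateral to ipsilateral in every mouse, Scin drops in every mouse, and Aldh3a1 is spread from 0.579 to 2.997 CPM in the contralateral cKO group.

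Injury moved 4 of the 8 genes in control mice and 5 of the 8 in cKO mice. In both genotypes Cyp1b1 and Xdh rose and Scin fell; Ugt1a6b rose in control mice, and Nqo1 and Aldh3a1 fell in cKO mice. The background was large: in control mice 29.9% of all tested genes were called (13.8% higher, 16% lower), and in cKO mice 31.3% (16.2% higher, 15.1% lower). The median log2 change over the 8 genes was 0.10 in control and -0.00 in cKO mice, beside medians of -0.00 and -0.03 over all tested genes, so the set had no common direction. Cell type markers moved with injury as well. Summed perineurium and barrier markers did not overlap between the sides, with 108 to 156 CPM contralaterally and 173 to 227 CPM ipsilaterally in control mice and 111 to 176 and 180 to 254 CPM in cKO mice, although only 1 of the 4 was called in each genotype. Of 6 satellite glia markers 3 were called higher in each genotype, with sums of 526 to 601 and 625 to 698 CPM in control and 487 to 639 and 587 to 630 CPM in cKO mice. Of 6 endothelial markers 2 were called higher in control and 0 in cKO mice, and of 5 tendon and cartilage markers 1 was called lower in control and 3 in cKO mice. The tendon and cartilage sums of H64, H95 and H100 went from 145, 218 and 215 CPM to 50.2, 35.9 and 76.9 CPM. Those of the other cKO mice went from 76.0 to 39.9 CPM (H61) and from 41.4 to 41.4 CPM (H99). Of 9 sensory neuron markers 2 and 3 were called lower, and of 7 fibroblast markers 0 in control mice and 1 in cKO mice. The part of these cells in the changes of the 8 genes was not tested beyond the fibroblast covariate given later.

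The injury changes of the genotypes were also compared directly: 0 of the 8 interactions passed in edgeR, beside 0% of all genes (2799 of 28564 had an unadjusted p under 0.05, and DESeq2 called 11). Among the 8 genes, those of Cyp1b1 (-0.26 ± 0.12) and Aldh3a1 (-1.41 ± 0.67) had an unadjusted p under 0.05 (adjusted p = 0.505 and 0.510), as did 9.80% of all genes, and DESeq2 called 0 of the 8. Without the 3 contralateral libraries that stood apart these interactions were 0.032 and 0.052.

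**Figure D2:**
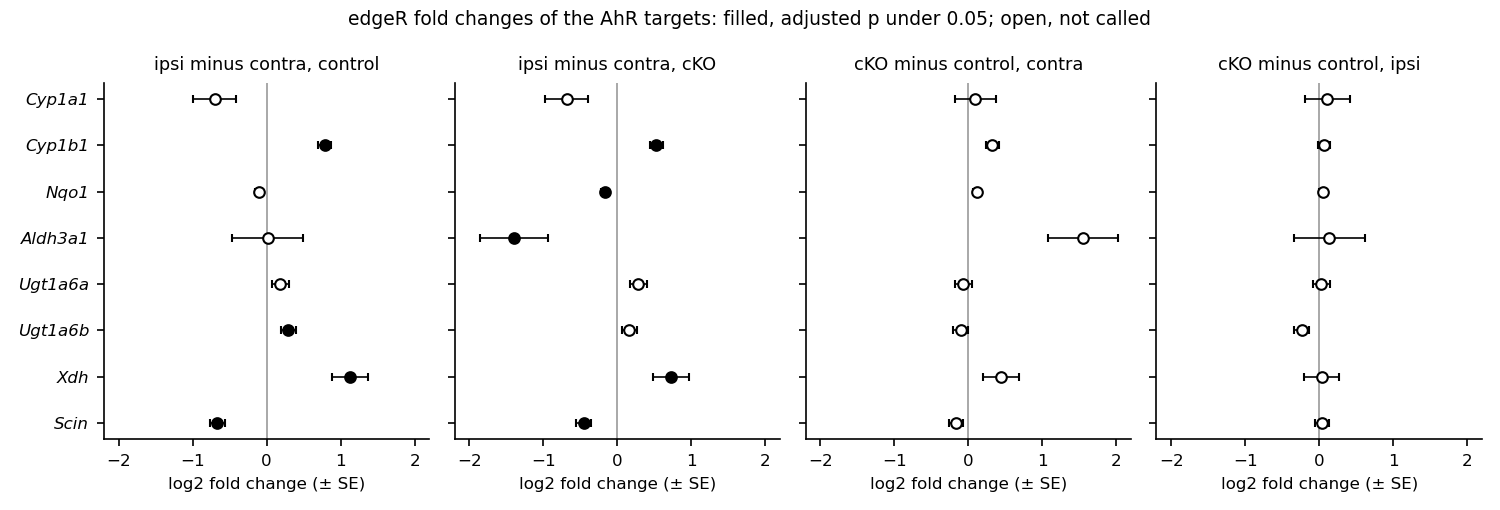
Log2 fold changes from edgeR with their standard errors for the injury response in each genotype and for cKO against control on each side; filled points passed an adjusted p of 0.05 over 28564 genes. Filled points appear only in the panels of injury, at 4 genes in control and 5 in cKO mice; the differences between genotypes are all open.

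Among the oxidising enzymes, Cyp1b1 showed the most regular response. It encodes a cytochrome P450 that oxidises polycyclic hydrocarbons and oestrogens and is typical of mesenchymal and vascular cells. In control mice the contralateral libraries had 50.2, 54.0, 48.9, 48.0 and 53.6 CPM and the ipsilateral libraries of the same mice (H62, H63, H65, H96, H97) 87.9, 90.6, 84.5, 83.8 and 91.2 CPM. All ipsilateral values lay above all contralateral ones, a rise of 0.78 ± 0.09 on the log2 scale (1.72-fold, adjusted p = 7.69e-07). In cKO mice (H61, H64, H95, H99, H100) the contralateral libraries had 54.4, 69.5, 73.2, 49.5 and 72.1 CPM and the ipsilateral ones 91.0, 98.6, 87.0, 85.6 and 95.9 CPM. The groups again did not overlap, with a rise of 0.52 ± 0.08 (1.44-fold, adjusted p = 8.24e-05). The contralateral cKO values formed 2 levels, and the 3 high ones belonged to H64, H95 and H100. Without those 3 libraries the rise in cKO mice was 0.83 ± 0.06 (adjusted p = 1.1e-08), beside 0.79 ± 0.04 in control mice in the same fit.

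Xdh encodes xanthine dehydrogenase, the enzyme that makes uric acid from purines. In control mice it had 9.77, 7.62, 6.40, 7.35 and 5.86 CPM in the contralateral and 16.3, 19.0, 13.3, 14.8 and 17.7 CPM in the ipsilateral libraries. The sides did not overlap, and the rise was 1.13 ± 0.24 (2.19-fold, adjusted p = 0.00152). In cKO mice the contralateral values were 8.64, 15.6, 12.03, 4.15 and 9.97 CPM and the ipsilateral ones 15.7, 20.2, 17.2, 13.5 and 16.4 CPM. All 5 mice rose, yet the ranges overlapped through the contralateral library of H64, and the change was 0.72 ± 0.24 (1.65-fold, adjusted p = 0.0285). That call was lost when H61, H95 or H100 was left out (adjusted p = 0.0826, 0.0579 and 0.0759), with no filter on low counts (0.058) and with only the cKO libraries in the fit (0.098), while without the 3 contralateral libraries that stood apart the rise was 1.38 ± 0.26 (adjusted p = 0.0011).

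Aldh3a1 encodes an aldehyde dehydrogenase that clears reactive aldehydes and is among the strongest targets of the receptor in liver. In control mice it was at or below 1.36 CPM, with 1.36, 0.539, 0.437, 0.398 and 0.349 CPM contralaterally and 0.342, 0.643, 0.478, 0.862 and 0.781 CPM ipsilaterally. Mouse H62 was high contralaterally and lowest ipsilaterally, the other 4 mice were higher after injury, and the fitted change was 0.01 ± 0.48 (adjusted p = 0.988). In cKO mice it fell from 0.727, 2.05, 2.997, 0.579 and 2.69 CPM to 0.494, 0.822, 0.575, 0.448 and 1.10 CPM, lower in 5 of 5 mice (log2 change -1.40 ± 0.46, adjusted p = 0.027). The 3 high contralateral values were those of H64, H95 and H100. Without these libraries, a fit of 2 contralateral against 5 ipsilateral cKO libraries gave a change of 0.08 ± 0.49 (adjusted p = 0.939). In both mice kept on the 2 sides Aldh3a1 fell, from 0.727 to 0.494 CPM in H61 and from 0.579 to 0.448 CPM in H99. Leaving out H64 or H95 alone also ended the call (adjusted p = 0.0714 and 0.148), as did no filter (0.0723) and only the cKO libraries in the fit (0.0639). The contralateral libraries of H64, H95 and H100 held the highest cKO values. Leaving all 3 out therefore had to shrink the fall and cannot test it.

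Cyp1a1, the most inducible of the cytochromes in this set, had 10 to 40 counts per library. Its level was 0.295 ± 0.062 CPM in contralateral and 0.180 ± 0.047 CPM in ipsilateral control ganglia, and 0.315 ± 0.084 and 0.198 ± 0.096 CPM in cKO ganglia (SD, n = 5). It was lower after injury in 5 of 5 control and 4 of 5 cKO mice. The changes of -0.70 ± 0.29 and -0.69 ± 0.29 did not pass the test over all genes (adjusted p = 0.0781 and 0.076). With only the control libraries in the fit the first was called (adjusted p = 0.04), as was the second without mouse H100 (-0.92, adjusted p = 0.0335).

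Nqo1 encodes a quinone reductase that prevents redox cycling and answers to both the receptor and NRF2. Its levels were even, with 13.6 to 15.6 CPM contralaterally and 12.4 to 14.8 CPM ipsilaterally in control mice, where the change was -0.10 ± 0.06 (adjusted p = 0.177). In cKO mice it fell slightly, from 15.3 to 16.5 CPM to 13.1 to 16.1 CPM, lower in 5 of 5 mice (-0.17 ± 0.06, adjusted p = 0.0237). The ranges overlapped, and the call was lost when H64 or H95 was left out and without the 3 contralateral libraries (adjusted p = 0.099, 0.134 and 0.333), as well as with no filter (0.0876) and with only the cKO libraries in the fit (0.0731).

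Ugt1a6a and Ugt1a6b encode UDP-glucuronosyltransferases, which attach glucuronic acid to phenols. They lie in the Ugt1a cluster on chromosome 1, whose 9 genes share their last exons: 50.3% of the exon bases of Ugt1a6a and 60.6% of those of Ugt1a6b belong also to other genes of the cluster. How the authors assigned such reads is not given in the sources used here, so the split between the pair is uncertain. Both were higher ipsilaterally in 5 of 5 mice of each genotype. In control mice Ugt1a6a averaged 4.87 ± 0.56 CPM contralaterally and 5.54 ± 0.56 ipsilaterally, and in cKO mice 4.65 ± 0.87 and 5.65 ± 0.69 (SD, n = 5), with changes of 0.18 ± 0.11 and 0.28 ± 0.11 that were not called (adjusted p = 0.248 and 0.0637). With the mouse as a block, which compares the sides within each animal, the change in cKO mice was 0.29 and was called (adjusted p = 0.00951). It was called as well with DESeq2 (0.047), with the fibroblast covariate (0.0325), without H64 (0.0209) and without the 3 contralateral libraries (0.0403). Ugt1a6b rose in control mice, with 1.64 ± 0.20 CPM contralaterally and 2.01 ± 0.26 ipsilaterally (0.29 ± 0.10, adjusted p = 0.0385), and averaged 1.53 ± 0.20 and 1.71 ± 0.07 CPM in cKO mice (0.16 ± 0.11, adjusted p = 0.27). Its call in control mice was lost when H61, H62, H63 or H97 was left out, with adjusted p from 0.0528 to 0.156, and also with no filter on low counts (adjusted p = 0.0728) and with the fibroblast covariate (adjusted p = 0.0822). With the counts of the pair summed, the changes were 0.21 in control and 0.25 in cKO mice, neither called (adjusted p = 0.126 and 0.0642).

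Scin was the one target whose fall was called in both genotypes. Scinderin severs and caps actin filaments and takes part in secretion. In control mice it had 21.7, 18.0, 18.8, 17.9 and 17.5 CPM in contralateral and 12.5, 11.5, 14.0, 10.5 and 10.8 CPM in ipsilateral libraries. In cKO mice the contralateral values were 16.3, 14.8, 15.02, 19.8 and 17.6 CPM and the ipsilateral ones 12.3, 9.89, 11.9, 12.5 and 14.2 CPM. All ipsilateral values lay below all contralateral ones in both genotypes, and Scin fell by 0.66 ± 0.10 in control and by 0.46 ± 0.10 in cKO mice on the log2 scale (adjusted p = 2.25e-05 and 0.00109). Both calls stood in each of the 18 other settings tried.

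Other genes that answer to the receptor did not move as a group either. Of a list of 8, 5 passed the filter. Of these, 2 rose and 0 fell in control mice, where 29.9% of all tested genes were called. In cKO mice 2 rose and 2 fell, beside 31.3% of all tested genes. Tiparp, which encodes a poly-ADP-ribosyltransferase that restrains the receptor, rose by 0.16 ± 0.04 and 0.21 ± 0.04 (adjusted p = 0.00234 and 0.000172). Slc7a5, a carrier of large neutral amino acids, rose by 0.58 ± 0.07 and 0.62 ± 0.07 (adjusted p = 1.22e-06 and 4.25e-07). Ahrr, which encodes the receptor's repressor, had a change of -0.20 ± 0.08 in control mice (adjusted p = 0.0685) and fell by 0.27 ± 0.08 in cKO mice (adjusted p = 0.0108). Cyp2s1, another cytochrome, had a change of -0.14 ± 0.11 in control mice (adjusted p = 0.402) and fell by 0.39 ± 0.11 in cKO mice (adjusted p = 0.0109). Gsta1 was not called in either genotype, and Cyp1a2, Gsta2 and Ido1 were too low to test, with 0 to 22 counts per library.

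Of 8 genes regulated by NRF2, 3 rose and 1 fell in control mice and 4 rose and 1 fell in cKO mice. Srxn1, sulfiredoxin, rose by 1.11 ± 0.04 and 1.13 ± 0.04 (adjusted p = 9.02e-14 and 6.87e-14), and Txnrd1, thioredoxin reductase, by 0.65 ± 0.08 and 0.77 ± 0.08 (adjusted p = 2.47e-06 and 2.84e-07). G6pdx, which supplies NADPH, also rose in both (0.20 and 0.24), Hmox1, haem oxygenase, rose in cKO mice (0.30 ± 0.07, adjusted p = 0.00184; 0.12 ± 0.07, adjusted p = 0.205, in control), and Gclc, of glutathione synthesis, fell by 0.30 and 0.24. Nqo1, often counted with these genes, had changes of -0.10 and -0.17. Between genotypes 0 genes of either list were called on either side.

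Between genotypes, 0 of the 8 genes were called on either side by edgeR. On the contralateral side 0.0735% of all genes were called and on the ipsilateral side 0.007%. Contralaterally, the mean level of Aldh3a1 was 0.618 ± 0.42 CPM for control mice against 1.81 ± 1.1 for cKO mice (SD, n = 5), a log2 difference of 1.55 ± 0.47 (adjusted p = 0.124). Cyp1b1 had 50.9 ± 2.7 and 63.7 ± 11 CPM (0.32 ± 0.09, adjusted p = 0.103), and Xdh 7.40 ± 1.5 and 10.1 ± 4.2 CPM (0.44 ± 0.24, adjusted p = 0.357). Each group of cKO values overlapped the control values. Aldh3a1, Cyp1b1 and Nqo1 had an unadjusted p under 0.05, as did 17.5% of all genes, and DESeq2 called Cyp1b1 and Aldh3a1 (adjusted p = 0.0102 and 0.0187) among 1030 genes in all (3.61%).

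The contralateral calls changed with the mice that entered. Among the cKO mice, H64, H95 and H100 had the highest contralateral Cyp1b1, Aldh3a1 and Xdh, and H99 the lowest. The direction in which either removal moved the differences was therefore fixed in advance and does not test them. Without H99, the cKO mouse lowest in Xdh and Aldh3a1, edgeR called Cyp1b1, Aldh3a1 and Xdh (adjusted p = 0.00345, 0.0179 and 0.0238), and the number of all genes called went from 21 to 3326. Without the contralateral libraries of H64, H95 and H100 the differences were 0.03 ± 0.06 for Cyp1b1, 0.08 ± 0.50 for Aldh3a1 and -0.21 ± 0.25 for Xdh (adjusted p = 1.00 for each), with 2 genes called in all. The remaining 2 cKO mice, H61 and H99, had 0.727 and 0.579 CPM of Aldh3a1, inside the control range, and 54.4 and 49.5 CPM of Cyp1b1, of which the first lay just above the highest control value.

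On the ipsilateral side the genotype groups overlapped for all 8 genes. The 95% interval of the log2 difference (cKO minus control) was -0.10 to 0.23 for Cyp1b1, -0.06 to 0.16 for Nqo1, -0.19 to 0.25 for Ugt1a6a and -0.16 to 0.23 for Scin. It was wider for Xdh (-0.43 to 0.50), Cyp1a1 (-0.48 to 0.70) and Aldh3a1 (-0.80 to 1.07). Ugt1a6b differed in cKO ganglia by a log2 difference of -0.24 ± 0.10 (interval -0.44 to -0.03), the only one of the 8 intervals without 0. It did not pass over all genes (adjusted p = 1.00), of which 2.36% had an unadjusted p under 0.05 on this side. DESeq2 called 0 of the 8 here, beside 0.0105% of all genes.

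Fibroblast content was measured as the mean log2 CPM of Lum, Dcn and Col1a1, which encode lumican, decorin and a type I collagen chain. The score was 7.002 ± 0.26 in contralateral control, 7.46 ± 0.40 in contralateral cKO, 7.32 ± 0.24 in ipsilateral control and 7.23 ± 0.28 in ipsilateral cKO libraries (SD, n = 5). The contralateral difference between genotypes was 0.46 (two-sided exact permutation p = 0.0794) and the ipsilateral one -0.09 (exact permutation p = 0.587). Injury changed the score by 0.32 in control mice (higher in 4 of 5, exact permutation p = 0.125) and by -0.23 in cKO mice (higher in 2 of 5, exact permutation p = 0.375); with 5 pairs this test cannot pass 0.05. Without the contralateral libraries of H64, H95 and H100 the contralateral difference was 0.06 (2 cKO and 5 control mice) and the change in cKO mice -0.05 (2 mice). The 3 highest contralateral scores were 7.46 (H100), 7.81 (H95) and 7.91 (H64), followed by 7.40 in the control mouse H62. In whole ganglia, fewer cells of a type and less RNA per cell cannot be told apart, so the score stands for fibroblast RNA.

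Across the 10 contralateral libraries, 1 per mouse, Aldh3a1 followed this score most closely. Pearson's r was 0.931 (permutation p = 0.00038) and Spearman's rho 0.927 (permutation p = 0.00033), and only 0.567% of 28550 genes had an r as high. Xdh had an r of 0.842 (permutation p = 0.0019) and a rho of 0.903 (permutation p = 0.00095). Cyp1b1 had an r of 0.831 (permutation p = 0.0063) and a rho of 0.770 (permutation p = 0.0128). Adjusted over all genes on this side, Aldh3a1 (adjusted p = 0.0201) and Xdh (adjusted p = 0.0316) passed and Cyp1b1 (adjusted p = 0.051) did not. The background was again large, since 12% of all genes passed. Adjusted instead over the 24 relations of 8 genes and 3 readings (contralateral, ipsilateral and their difference), 3 genes passed contralaterally; the genes were chosen with earlier results known, so that count is no independent evidence. The other 5 genes had r from -0.511 (Scin) to 0.476 (Nqo1).

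The 3 relations differed in what they rested on. Without the 2 mice farthest from the median score, r was 0.946 for Aldh3a1, 0.633 for Xdh and 0.614 for Cyp1b1. In deviations from the genotype means it was 0.888, 0.855 and 0.719 (exact permutation p within genotype = 0.00611, 0.000278 and 0.0978). Among the 7 mice left without H64, H95 and H100, r was 0.954 for Aldh3a1 (exact permutation p = 0.00278), 0.507 for Xdh (exact permutation p = 0.25) and 0.141 for Cyp1b1 (exact permutation p = 0.767). Adjusted over the 24 relations, none of the 3 passed among the 7 mice (Aldh3a1 adjusted p = 0.0667), and only Xdh passed in deviations from the genotype means (Aldh3a1 adjusted p = 0.0733). Cyp1b1 had 2 levels, 48.0 to 54.4 CPM in 7 libraries and 69.5 to 73.2 CPM in 3, and rho within the 7 was 0.429. The r of Aldh3a1 was as high among the 7 mice as among all 10.

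**Figure D3:**
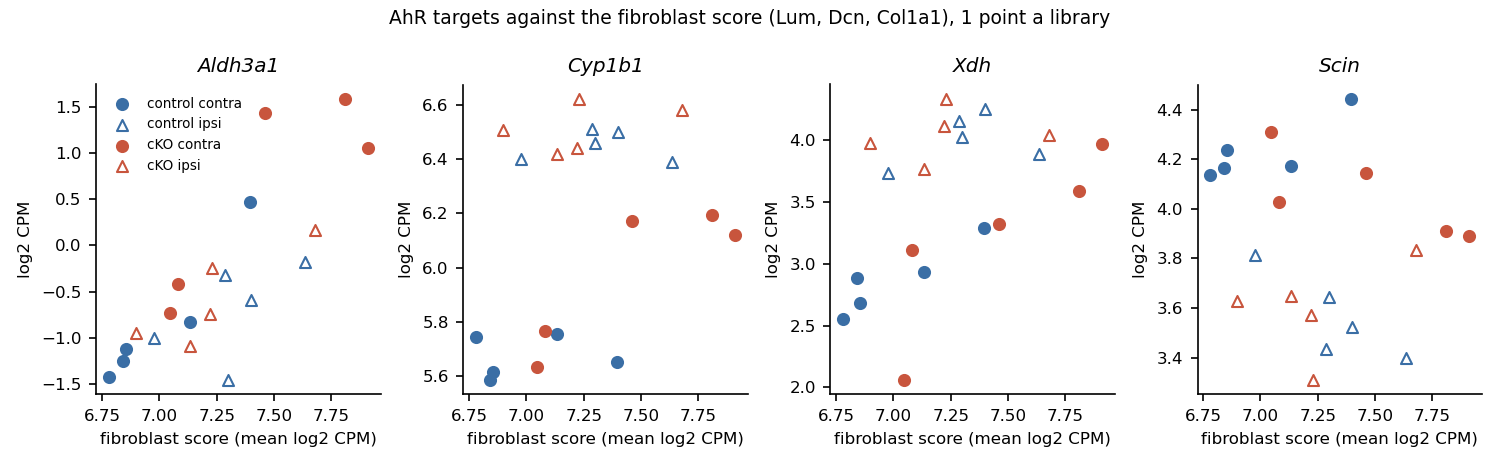
Log2 CPM of Aldh3a1, Cyp1b1, Xdh and Scin against the fibroblast score (mean log2 CPM of Lum, Dcn and Col1a1), 1 point per library; circles are contralateral, triangles ipsilateral, blue control and red cKO. Aldh3a1 rises along the score in the circles (r = 0.931 over 10 mice), whereas the Cyp1b1 and Scin triangles lie apart from their circles at the same scores.

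On the ipsilateral side, which was not tested against the contralateral one, Aldh3a1 had an r of 0.677 (permutation p = 0.0325) and a rho of 0.624, with an r of 0.305 without the 2 farthest mice, and it did not pass over all genes (adjusted p = 0.378). The other 7 genes had r from -0.141 to 0.297. These values moved without the 2 farthest mice, to 0.653 for Xdh (from 0.249), 0.641 for Ugt1a6b (from 0.297), -0.542 for Scin (from -0.141) and -0.419 for Nqo1 (from 0.278). Without H64, H95 and H100 the ipsilateral r was 0.579 for Aldh3a1, -0.777 for Scin and 0.671 for Ugt1a6b. It was -0.198 for Cyp1b1 (from 0.163) and -0.319 for Cyp1a1 (from 0.111), and none of the 8 passed over the 24 relations. No gene of the whole table passed on this side (0%, with 3289 at an unadjusted p under 0.05). For the change from contralateral to ipsilateral within a mouse, Aldh3a1 followed the change in score with an r of 0.815 (permutation p = 0.00441, rho 0.842, 0.762 without the 2 farthest mice). Nqo1 had an r of 0.759 (permutation p = 0.0115) and Xdh 0.647 (permutation p = 0.0438), which were 0.323 and 0.284 without the 2 farthest mice. Without H64, H95 and H100 the r of the change was 0.840 for Aldh3a1, 0.365 for Nqo1, 0.319 for Xdh and -0.740 for Ugt1a6a (from 0.00165). The change of Nqo1 was closer to that of macrophage markers (r = 0.884, rho = 0.818, 0.739 without the 2 farthest mice, permutation p adjusted over all gene and marker list relations = 0.0394), the only relation of this reading to pass; among the 7 mice r was 0.790 and it did not pass. For the fibroblast score again 0% of all genes passed, and the adjusted p over all genes was 0.0951 for Aldh3a1, 0.134 for Nqo1 and 0.233 for Xdh.

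With the fibroblast score as a covariate in the fit, the contralateral difference between genotypes was 0.53 for Aldh3a1, 0.18 for Cyp1b1 and -0.03 for Xdh (adjusted p = 0.762, 0.716 and 0.991). The injury changes of Cyp1b1 and Xdh were still called in both genotypes, at 0.69 and 0.60 for Cyp1b1 and 0.86 and 1.01 for Xdh in control and cKO mice. The fall of Aldh3a1 in cKO mice was -0.78 and still called (adjusted p = 0.0372), and its change in control mice became -0.55 (adjusted p = 0.193). Scin fell by 0.64 and 0.48.

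The fibroblast score did not vary alone. Contralaterally it correlated with scores of perineurium and barrier markers (r = 0.942), of tendon and cartilage (0.862), the list on which H64, H95 and H100 stand apart, and of endothelium (0.806), erythroid cells (0.798), neutrophils (0.781) and macrophages (0.746), each with an adjusted p under 0.05 by permutation over 33 relations, but not with sensory neurons (-0.599), Schwann cells (0.181) or satellite glia (-0.049). Among the 7 mice without those 3, r with the fibroblast score was highest for mural cells (0.899, against 0.562 in all 10) and was 0.847 for perineurium, 0.797 for endothelium, 0.668 for erythroid cells, 0.542 for neutrophils, 0.437 for tendon and cartilage and 0.0859 for macrophages. Over the 10 contralateral libraries, with p adjusted over all relations of 8 genes, 12 lists and 3 readings, Xdh was closest to neutrophil markers (r = 0.961, rho = 0.915, 0.892 without the 2 farthest mice, adjusted permutation p = 0.013), followed by erythroid markers (r = 0.920, adjusted permutation p = 0.013). The 6 neutrophil markers summed to 32.6 to 97.6 CPM in contralateral control and 18.03 to 150.4 CPM in contralateral cKO libraries, and the 5 erythroid markers to 311 to 711 and 272 to 833 CPM. On the ipsilateral side, where neutrophil markers were 31.4 to 136 CPM in control and 46.3 to 130 CPM in cKO libraries, the r of Xdh with them was 0.29 and was not called. Aldh3a1 was closest to a list of 7 fibroblast markers (r = 0.943, adjusted permutation p = 0.0134), whose sum was 803 to 1359 CPM in contralateral control and 937 to 2245 CPM in contralateral cKO libraries. For tendon and cartilage markers, where the 3 libraries stand apart, the pooled r was 0.944 for Cyp1b1 and 0.922 for Aldh3a1, against 0.527 and 0.577 among the other 7 mice. Among these 7, r was 0.945 for Xdh with neutrophil markers, 0.875 for Xdh with erythroid markers and 0.924 for Aldh3a1 with fibroblast markers, and 0 of all the relations passed adjustment (smallest exact permutation p adjusted over them = 0.114). Over all 10 contralateral libraries Ugt1a6b was highest with satellite glia (0.777), short of the threshold, and this r was 0.544 among the 7 mice. Which cells made each transcript was not tested.

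**Figure D4:**
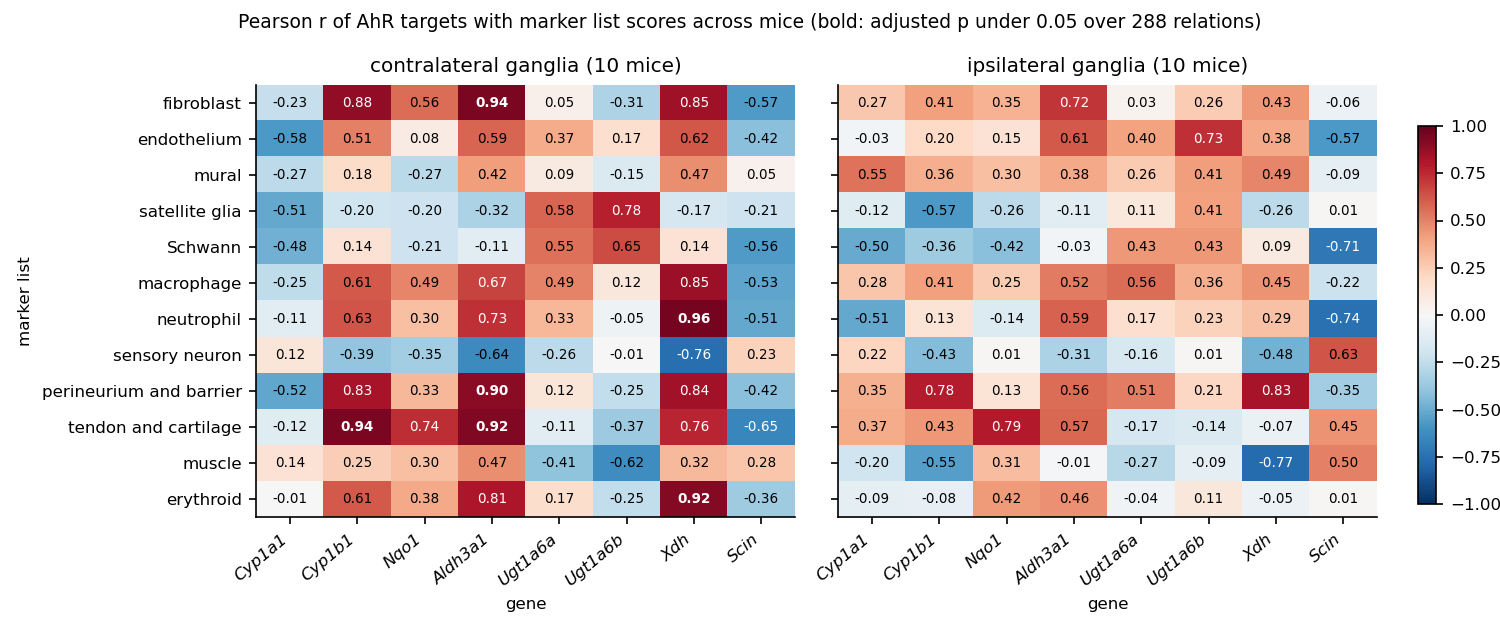
Pearson r between the log2 CPM of each gene and the mean log2 CPM of each marker list over 10 mice, contralateral (left) and ipsilateral (right), on a colour scale from -1 to 1; bold values passed an adjusted p of 0.05 over all relations. Bold cells sit on the contralateral side only, at Cyp1b1, Aldh3a1 and Xdh.

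The 8 genes did not vary as 1 group between animals. In deviations from the group means over the 20 libraries, given as a description, Cyp1b1, Xdh and Aldh3a1 went together (r = 0.741 for Cyp1b1 with Xdh, 0.715 for Aldh3a1 with Xdh and 0.713 for Cyp1b1 with Aldh3a1). Without the 3 contralateral libraries of H64, H95 and H100 these r were 0.494, 0.551 and 0.268 over 17 libraries. Ugt1a6a and Ugt1a6b had an r of 0.606, on partly shared exons. Scin opposed Ugt1a6b (-0.627), Ugt1a6a (-0.568) and Xdh (-0.477), and Cyp1a1 was highest with Nqo1 (0.419).

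The genes with the most similar deviations, among 11866 to 11868 named genes of at least 5 CPM, differed for each. For Aldh3a1 they were Ppic (0.933), Gng11 (0.930) and Ctsk (0.924), the last encoding cathepsin K, a protease of bone and connective tissue. For Xdh they were Ly6a (0.946), Tpm4 (0.913) and Reck (0.911), and for Cyp1b1 S100a11 (0.915), Timp3 (0.907) and Syn3 (0.905), of which Timp3 lies inside Syn3 in the genome. Ugt1a6a was nearest to Lgi4 (0.891), Fxyd3 (0.884) and Art3 (0.880), of which Lgi4 is a secreted factor of myelinating glia. Ugt1a6b was nearest to Sept9 (0.795), Pdgfb (0.792) and Angptl4 (0.792). Scin was near to Paqr5 (0.898) and Ccdc141 (0.897), and Nqo1 to Tomm40, Yif1b and Mak16 (0.707 to 0.721). Cyp1a1, the lowest, had Gstcd (0.738), Adamts9 (0.709) and Apoo-ps (0.700). Over the 17 libraries the r was 0.861 to 0.907 for the neighbours of Aldh3a1, 0.822 to 0.888 for those of Xdh and 0.639 to 0.743 for those of Cyp1b1.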

How the data were processed

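Raw whole-number exonic read counts per gene, 1 column per library, are used as deposited by the authors; HISAT2, Picard and the builds mm10 and mm39 are named, without roles, per the submitters' processing notes. The counting program, annotation and strand setting are not given in the sources used here. The deposited FPKM table was not used. Symbols came from GENCODE M21 by identifier (51487 of 78258 matched).

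Counts were analysed with edgeR 4.0.16 in R 4.3.3: filterByExpr (minimum count 10, total 15), TMM scaling and its quasi-likelihood F-test with robust dispersion, fitted once to the 4 group means of all 20 libraries, with Benjamini-Hochberg adjustment over 28564 genes and a threshold of 0.05. The 5 comparisons were injury in each genotype, genotype on each side and the interaction. The SE is the log2 fold change divided by the square root of F. Log2 CPM used a prior count of 2. Correlations took 1 value per mouse, with 100000 resamples or all permutations below 10 mice. The fit was tested on simulated data.

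The 2 libraries of a mouse come from the same animal and are paired by its number; across genes, their deviations from the group means had a median correlation of 0.186 (-0.0546 to 0.361, over 0.1 in 7 of 10 mice). Replicate libraries differed beyond counting error (chi-square per degree of freedom 5.31 to 58.3 over 40 pairs), and reads carried no molecular identifiers.

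Alternatives were RLE size factors, DESeq2 1.42.0, no filter, a mean of at least 1 CPM, the fibroblast covariate, the mouse as a block, only the libraries compared, the Ugt1a6 pair summed, each mouse left out and, added after the data were seen, 3 contralateral libraries left out. The genes named are the 8 targets, Ahr, Arnt, the other receptor and NRF2 targets, the score genes and the 3 nearest genes of each target, of which 1 is not reported here. Genes and lists were chosen with earlier results of these data known.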

Additional observations from a re-analysis of the deposited data

Results flagged for a closer look

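In 36 sets of 5 libraries (the 8 genes and the fibroblast score in 4 groups), 1 held a library far from the other 4. Aldh3a1 in the contralateral ganglion of control mouse H62 was 1.36 CPM, against 0.349 to 0.539 CPM in the other 4 control mice; its gap to the nearest value was 0.813 of the whole range. Chance gives about 1.8 such sets in 36. The same library had the highest fibroblast score of its group (7.40) and more muscle markers (274 CPM) than the other contralateral control libraries. Without H62 the change of Aldh3a1 after injury in control mice was 0.69 in place of 0.01, and not called in either case.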

How the results depend on the processing

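Rises of Cyp1b1 and falls of Scin after injury in both genotypes, and the rise of Xdh in control mice, were called in each of 18 alternatives; of 225 values for the 13 called results, 1 changed sign. Over all 683 fold changes, 616 kept direction and side of the threshold, 20 lost a call, 12 gained one and 35 changed sign. The cause of each change below was not tested. The number of genes called for injury in cKO mice was 5 at first, 2 with no filter, 2 with only the libraries compared and 2 to 5 with a mouse left out (control: 3 to 4). For genotype on the contralateral side it was 0 at first, 2 with DESeq2 and 0 to 3 with a mouse left out, and for the ipsilateral side and the interaction 0 to 0. With the replicate block (mouse), 4 genes were called in control and 6 in cKO mice, the change of Ugt1a6a being the one gained, and the interaction of Cyp1a1 was -0.0145 in place of 0.015. Over all genes, contralateral genotype calls numbered 21 at first, 1030 with DESeq2, 50 with no filter, 45 at a mean of 1 CPM, 23 with RLE, 4 with the covariate, 2 with only the libraries compared, and 4 to 3326 with a mouse left out (3326 without H99).

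The fibroblast covariate turned Aldh3a1 in control injury to -0.55, Xdh in contralateral genotype to -0.028 and the interactions of Cyp1a1 and Xdh to -0.10 and 0.15. Summing the Ugt1a6 pair gave Ugt1a6a an ipsilateral difference of -0.038. Without the 3 contralateral libraries Aldh3a1 in cKO injury was 0.076, Xdh in contralateral genotype -0.21, and the interactions were -0.25 (Cyp1a1), 0.032 (Cyp1b1), 0.052 (Aldh3a1) and 0.24 (Xdh). With a mouse left out, uncalled values crossed 0 for Aldh3a1 in control injury (-0.25 to 0.69), contralaterally for Cyp1a1 (-0.077 to 0.24) and Ugt1a6a (-0.18 to 0.0027), ipsilaterally for Cyp1a1 (-0.13 to 0.29), Aldh3a1 (-0.087 to 0.28), Ugt1a6a (-0.028 to 0.077), Xdh (-0.044 to 0.10) and Scin (-0.026 to 0.11), and for the Cyp1a1 interaction (-0.22 to 0.18).

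The number of genes correlated with the fibroblast score, adjusted over 24 relations, was 3 contralaterally, 1 in deviations from genotype means, 1 without the 2 farthest mice, 0 without the 3 mice and 1 to 3 with a mouse left out; ipsilaterally it was 0 to 1. For the change between sides it was 1 at first, 0 in deviations, 2 with 4 other fibroblast markers, 0 without the 2 farthest mice, 2 with RLE, 0 without the 3 mice and 0 to 2 with a mouse left out. Contralateral r changed sign without the 2 farthest mice for Ugt1a6a (-0.578) and Scin (0.316), without the 3 mice for Nqo1 (-0.427), Ugt1a6a (-0.309) and Scin (0.568), and with a mouse left out for Ugt1a6a (-0.370 to 0.359). With 10 to 40 counts, Cyp1a1 could show only large changes.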
